A study of Mus musculus with 6 samples.

Results

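The genes described here are the neighbours of Ucp1, the uncoupling protein gene of brown fat, on mouse chromosome 8. They are the 10 genes Rnf150, Scoc, Elmod2, Tbc1d9, Clgn, Zfp330, Inpp4b, Usp38, D8Ertd738e and Il15, of 29072 genes with an identifier in the deposited table. Their levels were measured by sequencing RNA of interscapular brown adipose tissue, the heat-producing depot between the shoulder blades. UCP1(-/-) mice were set against wildtype mice; both are labelled C57BL/6J, and each group has 3 libraries. The genes were chosen by position and with their knockout against wildtype difference known, so that difference is given as a description, with no p-value, and counts of these genes that passed the fit over all genes support nothing. Age, sex, diet and housing temperature are not given in the labels. Nor do the labels name the stem cell strain in which the allele was made or the number of backcrosses, and whether the DNA beside the targeted gene differs between the groups was not tested. Nothing says that the libraries came from separate animals, so the spread behind each p-value may be only technical. Errors are SD over the 3 libraries of a group.

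Ucp1 carries protons back across the inner mitochondrial membrane and so turns fuel into heat. Its neighbours do not form a pathway: they encode proteins of membrane traffic (Scoc, Tbc1d9, Elmod2), of the ubiquitin system (Rnf150, Usp38), a chaperone of the endoplasmic reticulum (Clgn), a phosphoinositide phosphatase (Inpp4b), a cytokine (Il15), a zinc finger protein of the nucleolus (Zfp330) and a small protein whose role is left out here (D8Ertd738e). In the RefSeq annotation of GRCm38.p6 the order along the chromosome is Usp38, Inpp4b, Il15, Zfp330, Rnf150, Tbc1d9, Ucp1, Elmod2, Clgn, Scoc and, farther on, D8Ertd738e.

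The values are RPKM, read numbers divided by transcript length and library depth, so levels can be compared between genes. The depth implied by the spacing of low values was 15800000 to 18000000 reads per library. The targeted gene was examined first. Ucp1 had 375, 389 and 372 RPKM in the knockout libraries, against 3096, 1714 and 3151 RPKM in the wildtype libraries. Every knockout library lay below every wildtype library, and wildtype replicate 2 was the lowest of its group. The knockout mean was still above the level of 99.1% of tested genes. Which part of the gene the allele removes is not given in the labels used here, and whether these rows cover it was not tested. Muscle RNA also moved with genotype. All 20 skeletal muscle markers were called higher in knockout (limma, adjusted p under 0.05), against 7.0% of all tested genes. Their summed level, highest in Acta1, lay between 1880 and 2159 RPKM (knockout) and between 63.5 and 310 RPKM (wildtype), with no marker at 0. All 12 brown adipocyte markers were tested, with 1 called higher and 1 lower, against 7.0% and 0.745% of all tested genes. These markers summed to 12434 to 13257 RPKM in knockout libraries, against 11607 to 12770 RPKM in wildtype libraries. The part of muscle in the differences below was not tested. In such bulk tissue, fewer cells of a type and less RNA per cell cannot be told apart.

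Rnf150 and Scoc had much lower levels in knockout brown fat, and Elmod2, D8Ertd738e and Il15 had moderately lower ones. Usp38, Tbc1d9, Inpp4b and Zfp330 had higher levels, and Clgn was at or near 0 in every library. In 9 of the 10 genes, all but Clgn, the knockout and wildtype libraries did not overlap, against 29.4% of all tested genes. Of these, 4 were higher and 5 lower, against 24.3% and 5.14% of all tested genes. The 9 and the 4 include Inpp4b, which was too low to be tested, so the sets compared are not quite alike. Genes were tested where the mean of either group reached 1 RPKM, which 8 of the 10 did; Clgn and Inpp4b did not. Of these 8, limma called 6 at an adjusted p under 0.05, 4 lower and 2 higher, against 7.75% of all tested genes (7.0% higher and 0.745% lower). With median-of-ratios scaling the counts were the same, 6 called and 9 not overlapping, against 5.63% and 27.9% of all genes tested. Because the genes were chosen on this contrast, nothing is read from these counts. Tbc1d9 passed the filter through its knockout level alone and Rnf150 through its wildtype level alone.

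**Figure D1:**
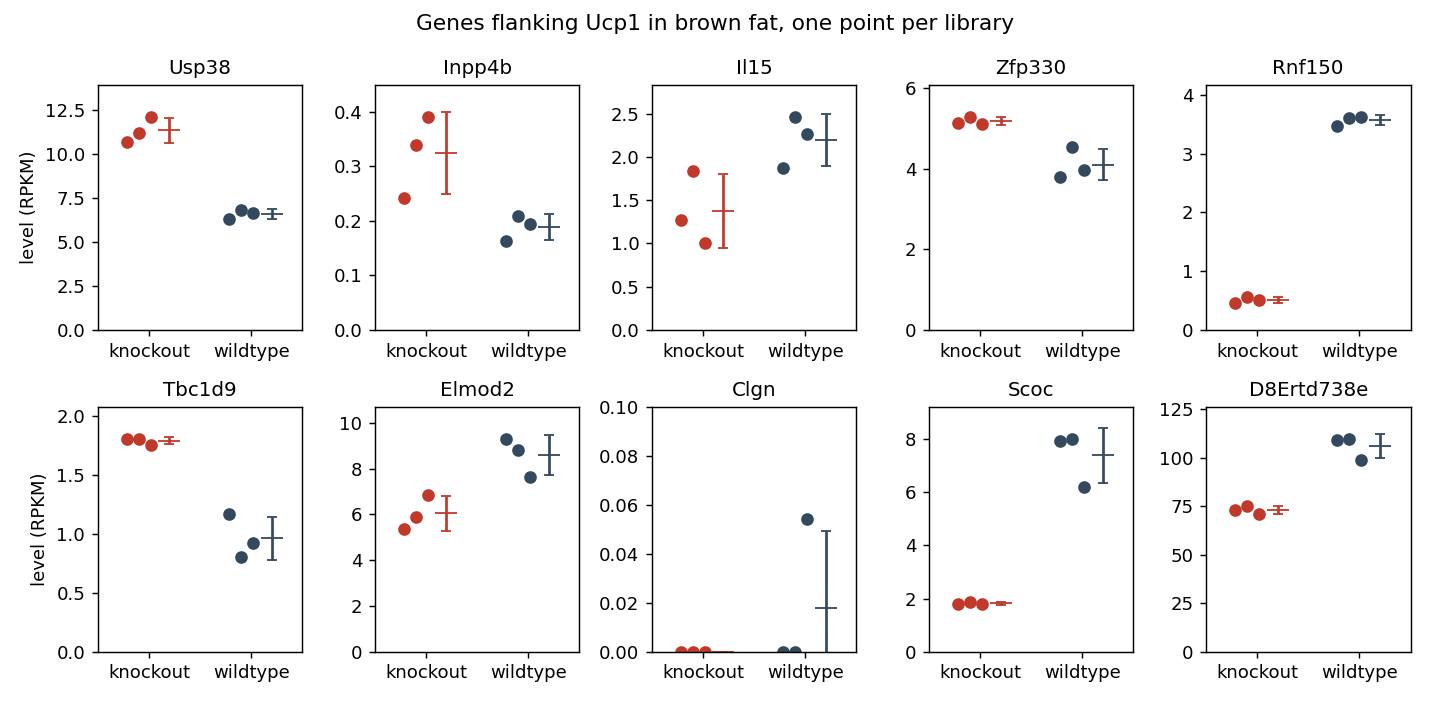
Level in RPKM (vertical axis, from 0, with its own scale in each panel) of the 10 genes in each library, with knockout left and wildtype right; points are libraries and the bar beside them is the mean ± SD (n = 3), cut at 0 for Clgn. The groups stand apart in every panel but that of Clgn, by 2.91 RPKM in Rnf150 and by 0.0335 RPKM in Il15.

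Among the genes of the ubiquitin system, Rnf150 encodes a membrane protein with a RING domain, the fold of many ubiquitin ligases. Rnf150 had 0.451, 0.563 and 0.504 RPKM in the knockout libraries, against 3.47, 3.61 and 3.63 RPKM in the wildtype libraries. The libraries of each group lay close together and far from those of the other group. Mean levels were 0.506 ± 0.0557 RPKM in the knockout and 3.57 ± 0.0852 RPKM in the wildtype (n = 3 each), 7.05-fold lower in knockout, about the ratio of Ucp1 itself (7.01-fold lower). As a difference of log2(RPKM + 1), a scale on which changes of low genes look smaller than they are, this was -1.60, the second largest fall among 11541 tested genes after that of Ucp1 at -2.75. The table gives 9 transcript rows for Rnf150. In all 9 every knockout library lay below every wildtype library, and the mean was 4.60-fold to 8.66-fold lower in knockout.

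Usp38 encodes a deubiquitinase, an enzyme that removes ubiquitin from proteins. Usp38 had 10.7, 11.2 and 12.1 RPKM in the knockout libraries, against 6.27, 6.81 and 6.64 RPKM in the wildtype libraries. Among the 10 genes it had the largest difference upwards on the log2(RPKM + 1) scale, 0.70, which ranked 358 upwards among all tested genes. Its mean level was 11.3 ± 0.720 RPKM in the knockout and 6.57 ± 0.276 RPKM in the wildtype (n = 3 each). This is a ratio of 1.72, below that of Tbc1d9 (1.86). All 7 of its transcript rows were higher in every knockout library than in any wildtype library, with ratios of 1.68 to 1.79. Usp38 is also the outermost of the 10 genes on its side of Ucp1. The next tested gene beyond it, Gab1, an adaptor of receptor signalling, averaged 2.64 ± 0.288 RPKM in the knockout and 2.92 ± 0.256 RPKM in the wildtype.

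Scoc encodes a short coiled-coil protein that binds a small GTPase at the Golgi and takes part in autophagy in human cells. Scoc had 1.80, 1.86 and 1.78 RPKM in the knockout libraries, against 7.94, 8.02 and 6.20 RPKM in the wildtype libraries. The knockout values were nearly identical to each other, and wildtype replicate 3 was the lowest of its group. The mean was 1.82 ± 0.0425 RPKM in the knockout and 7.39 ± 1.03 RPKM in the wildtype (n = 3 each), 4.07-fold lower in knockout. As a difference of log2(RPKM + 1) this was -1.57, the third largest fall of all tested genes on that scale, where changes of low genes look smaller. RefSeq gives Scoc more than 1 transcription start. Below are 300 bases around each of them (250 before and 50 after the start), with those of Usp38 and Tbc1d9, genes with higher knockout levels. Whether the letters go with the direction of change was not tested. Capitals mark, on either strand, the GC box with the letters GGGCGG, the CCAAT box, the TATA box with the letters TATAAA, the core of the cAMP response element (CRE) with the letters TGACG, and an E box with the letters CACGTG; the order is 5′ to 3′ on the gene's strand in GRCm38.p6.
Scoc, chr8:83458347-83458646, minus strand: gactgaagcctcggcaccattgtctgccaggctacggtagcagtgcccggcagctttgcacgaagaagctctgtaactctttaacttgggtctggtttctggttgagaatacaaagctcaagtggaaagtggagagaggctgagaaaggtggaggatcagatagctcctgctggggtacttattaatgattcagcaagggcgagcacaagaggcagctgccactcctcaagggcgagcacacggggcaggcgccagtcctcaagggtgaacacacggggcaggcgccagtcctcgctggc
Scoc, chr8:83442613-83442912, minus strand: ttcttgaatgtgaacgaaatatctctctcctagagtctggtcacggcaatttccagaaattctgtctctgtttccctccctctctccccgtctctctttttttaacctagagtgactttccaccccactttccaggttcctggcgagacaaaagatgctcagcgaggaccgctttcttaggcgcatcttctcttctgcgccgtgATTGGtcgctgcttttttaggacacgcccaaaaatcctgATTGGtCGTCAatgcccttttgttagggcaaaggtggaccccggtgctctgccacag
Usp38, chr8:81014857-81015156, minus strand: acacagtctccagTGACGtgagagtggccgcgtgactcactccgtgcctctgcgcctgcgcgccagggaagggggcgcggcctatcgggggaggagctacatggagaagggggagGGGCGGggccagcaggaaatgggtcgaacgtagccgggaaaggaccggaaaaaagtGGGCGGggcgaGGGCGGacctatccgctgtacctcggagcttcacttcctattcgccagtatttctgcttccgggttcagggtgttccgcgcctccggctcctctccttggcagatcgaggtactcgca
Tbc1d9, chr8:83165102-83165401, plus strand: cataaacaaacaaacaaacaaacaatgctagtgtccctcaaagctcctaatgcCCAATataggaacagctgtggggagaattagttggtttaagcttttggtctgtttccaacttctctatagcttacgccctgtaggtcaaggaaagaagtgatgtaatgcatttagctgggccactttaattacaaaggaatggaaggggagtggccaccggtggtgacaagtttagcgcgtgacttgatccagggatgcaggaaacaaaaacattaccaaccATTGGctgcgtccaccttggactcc

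None of these motifs occurs in the first Scoc window, which lies upstream of the other. The second Scoc window holds 2 CCAAT boxes and 1 CRE core, that of Usp38 holds 3 GC boxes and 1 CRE core, and that of Tbc1d9 holds 2 CCAAT boxes. The numbers of CG pairs are 11 and 13 in the Scoc windows, 27 in that of Usp38 and 5 in that of Tbc1d9, against a median of 7.0 over 32851 such windows. In the windows not printed they are 36 (Elmod2) and 14 (D8Ertd738e) for lower genes, and 25 (Inpp4b) and 15 (Zfp330) for higher genes. Of those windows, 35.7% hold a GC box, 37.4% a CCAAT box, 13.6% a TATA box, 20.8% a CRE core and 7.2% the E box. A match is a description of the letters and not of a bound factor. The RefSeq table has windows for 7 of the 10 genes, and Rnf150, Clgn and Il15 have none there.

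The 8 transcript rows of Scoc fell into separate patterns. In 5 rows, among them both RefSeq rows, the knockout libraries lay between 1.69 and 1.91 RPKM and the wildtype libraries between 5.92 and 8.5 RPKM. In the other 3 rows, knockout replicate 1 stood apart from the rest of its group. The first of these had 1.98, 0.620 and 0.542 RPKM in the knockout libraries, against 2.24, 2.71 and 2.41 RPKM in the wildtype libraries. The next had 1.58, 0.747 and 0.654 RPKM in the knockout libraries, against 1.55, 1.87 and 1.66 RPKM in the wildtype libraries. Here knockout replicate 1 lay within the wildtype range, while knockout replicates 2 and 3 lay below it. The last, at 1.06, 0.496 and 0.470 RPKM in the knockout libraries against 1.12, 1.08 and 0.962 RPKM in the wildtype libraries, showed the same pattern. Rows of a gene share reads: 3 of the Scoc rows hold values in 1 ratio to each other in every library (within 1%), and the 8 rows hold 5 distinct profiles.

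**Figure D2:**
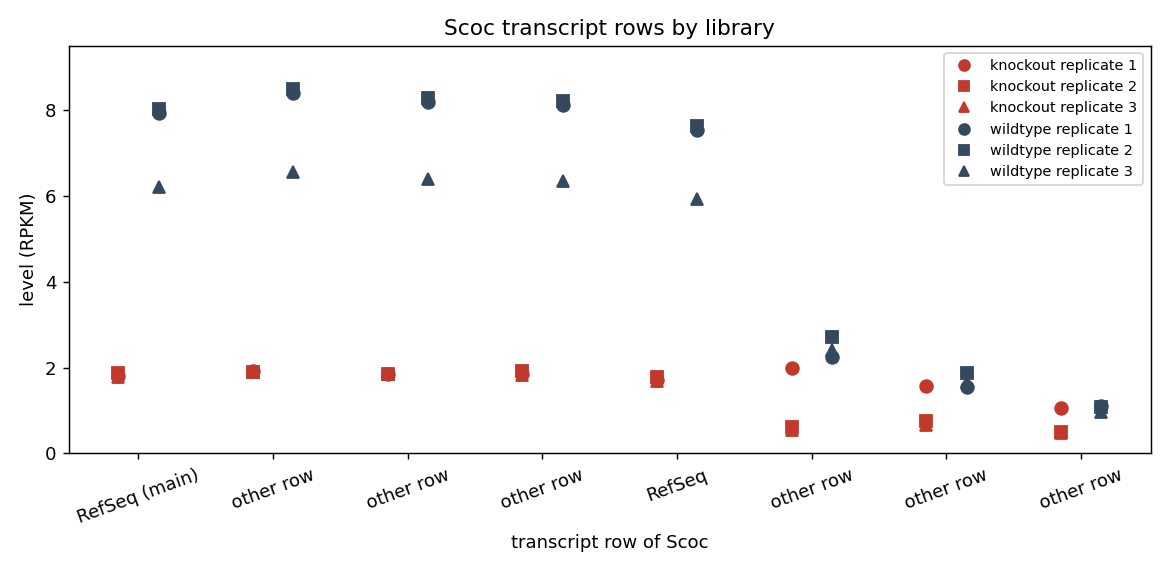
Level in RPKM (vertical axis) of the 8 transcript rows of Scoc (horizontal axis), with knockout libraries in red on the left and wildtype libraries in dark blue on the right of each row; marker shapes are replicates. In 5 rows all knockout points lie at or below 1.91 RPKM and all wildtype points above 5.9, and in the last 3 rows knockout replicate 1 stands above knockout replicates 2 and 3.

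Tbc1d9 belongs to a family of regulators of Rab GTPases and lies next to Ucp1. Tbc1d9 had 1.81, 1.81 and 1.76 RPKM in the knockout libraries, against 1.16, 0.801 and 0.920 RPKM in the wildtype libraries. The knockout libraries agree closely, and the lowest wildtype value is in replicate 2. Its mean level was 1.79 ± 0.0301 RPKM in the knockout and 0.962 ± 0.185 RPKM in the wildtype (n = 3 each), a ratio of 1.86 and a log2 difference of 0.51. In the Ensembl row of the whole coding transcript there were 167, 154 and 178 reads in the knockout libraries, against 103, 75 and 88 reads in the wildtype libraries. In 6 of its 8 rows every knockout library was above every wildtype library, and ratios ran from 1.72 to 1.86.

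Elmod2, the neighbour of Ucp1 on the other side, encodes a protein that stimulates GTP hydrolysis by the ARL2 GTPase. Elmod2 had 5.37, 5.89 and 6.87 RPKM in the knockout libraries, against 9.32, 8.84 and 7.65 RPKM in the wildtype libraries. The gap between the highest knockout and the lowest wildtype library was 0.776 RPKM, close to the spread within each group. Mean levels were 6.04 ± 0.762 RPKM in the knockout and 8.60 ± 0.858 RPKM in the wildtype (n = 3 each), 1.42-fold lower in knockout, with a log2 difference of -0.45. Of 14 Elmod2 rows, 12 had every knockout library below every wildtype library and 2 overlapped. The overlapping rows were among the lowest of the gene: in one annotated as a retained intron, 20, 18 and 25 reads were found in the knockout libraries and 23, 21 and 29 in the wildtype libraries. A longer retained intron row had 135, 147 and 206 reads in the knockout libraries and 220, 221 and 206 in the wildtype libraries. The full coding row had 403, 434 and 580 reads in the knockout libraries and 713, 673 and 585 reads in the wildtype libraries; knockout replicate 3 was the most deeply sequenced library, so reads are not compared between libraries here.

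Clgn encodes calmegin, a chaperone of the endoplasmic reticulum known in the mouse for its role in sperm. It lies between Elmod2 and Scoc. The main row of Clgn is listed at 0 in all knockout libraries and in wildtype replicates 1 and 2, and at 0.054 RPKM in wildtype replicate 3. A separate Ensembl row of Clgn had 0 reads in each knockout library, against 1, 0 and 3 reads in the wildtype libraries. A count of 0 allows up to 3 reads, or 0.0427 to 0.0487 RPKM for that row in these knockout libraries, so no difference was detectable at this depth; such limits cover counting error only. Gapdh is also listed at 0 in all libraries, and every cell uses that gene, so a listed 0 does not show absence.

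Inpp4b, a phosphatase that acts on phosphoinositides, was low in all libraries. Inpp4b had 0.242, 0.338 and 0.390 RPKM in the knockout libraries, against 0.163, 0.209 and 0.194 RPKM in the wildtype libraries. The groups did not overlap, but the gap was 0.0331 RPKM. The mean was 0.324 ± 0.0750 RPKM in the knockout and 0.189 ± 0.0234 RPKM in the wildtype (n = 3 each), a ratio of 1.71. In other rows of the gene, one marked by Ensembl for nonsense-mediated decay had 17, 24 and 31 reads in the knockout libraries and 14, 17 and 14 reads in the wildtype libraries. The coding row with the greatest Ensembl length had 0.501, 0.578 and 0.687 RPKM in the knockout libraries, against 0.357, 0.303 and 0.381 RPKM in the wildtype libraries. Its products with that length did not fall on whole reads, so no read numbers are given for it. Of 14 Inpp4b rows, 9 were higher in every knockout library than in any wildtype library and 5 overlapped, of which 1 is at 0 throughout.

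Il15 encodes interleukin 15, a cytokine that sustains natural killer cells and memory T cells and is presented by its receptor Il15ra. Il15 had 1.27, 1.84 and 1.0 RPKM in the knockout libraries, against 1.87, 2.46 and 2.27 RPKM in the wildtype libraries. Knockout replicate 2 nearly reached wildtype replicate 1, with a gap of 0.0335 RPKM. The mean was 1.37 ± 0.428 RPKM in the knockout and 2.20 ± 0.301 RPKM in the wildtype (n = 3 each), 1.61-fold lower in knockout, and the SD of the knockout libraries was 31.2% of their mean. Of 4 Il15 rows, 3 did not overlap and 1 did. Markers of T and natural killer cells were low: none of 12 was tested, and their summed level was 2.48 to 6.52 RPKM in knockout libraries, against 2.06 to 2.50 RPKM in the wildtype libraries, with none at 0 in every library.

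Zfp330, the zinc finger protein, had 5.13, 5.29 and 5.10 RPKM in the knockout libraries, against 3.80, 4.54 and 3.97 RPKM in the wildtype libraries. It showed the smallest ratio upwards of the 4 higher genes, 1.26, with means of 5.17 ± 0.0997 RPKM in the knockout and 4.10 ± 0.386 RPKM in the wildtype (n = 3 each). When the row with the highest level of any kind stood for the gene, the Zfp330 groups overlapped. Of its 6 rows, 4 were higher in every knockout library and 2 overlapped.

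D8Ertd738e was by far the most abundant of the 10 genes. D8Ertd738e had 73.0, 75 and 71.1 RPKM in the knockout libraries, against 109, 110 and 98.8 RPKM in the wildtype libraries. The groups were separated by 23.9 RPKM. Mean levels were 73.0 ± 1.95 RPKM in the knockout and 106 ± 6.08 RPKM in the wildtype (n = 3 each), 1.45-fold lower in knockout. Both rows of the gene hold the same profile. Its RefSeq span overlaps that of the neighbouring gene Mri1, and without a stated use of strand their reads cannot be told apart.

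**Figure D3:**
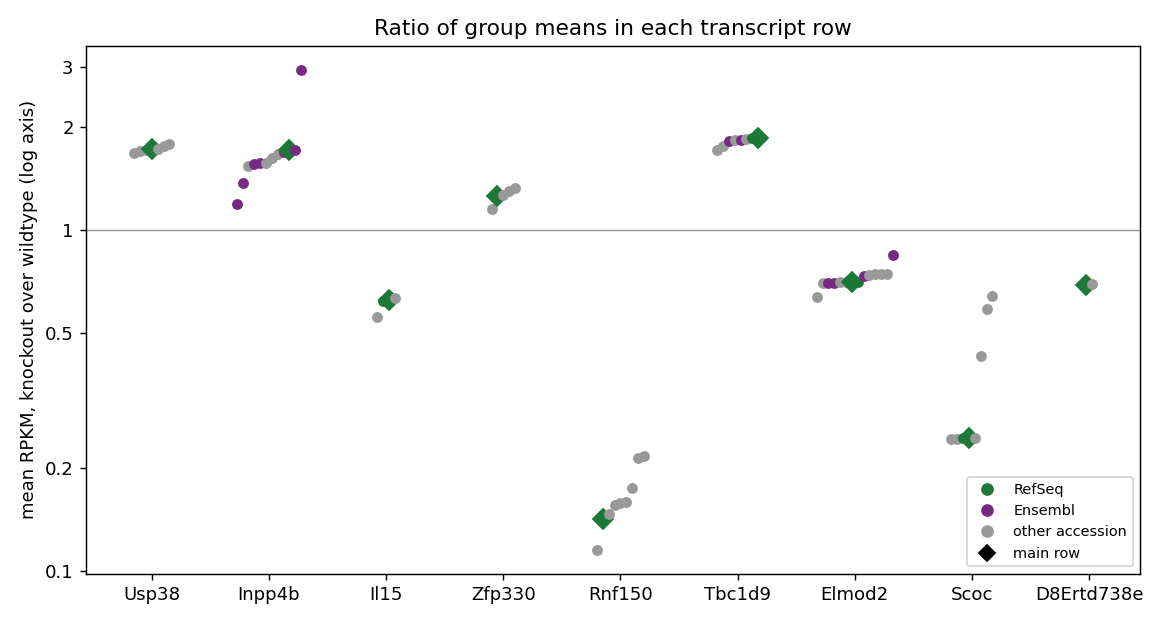
Ratio of the mean RPKM, knockout over wildtype (vertical log axis), in each transcript row of the 9 genes above 0 in both groups, in their order along the chromosome; diamonds are the main rows and colours the source of the row. All rows of Rnf150, Scoc, Elmod2, Il15 and D8Ertd738e lie below 1 and all rows of Usp38, Tbc1d9, Zfp330 and Inpp4b above 1.

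The rows of a gene thus lay on the same side of a ratio of 1 wherever both groups were above 0. Rows are not replicates, since they share reads and libraries. Higher and lower genes were interleaved along the chromosome: Usp38 and Inpp4b were higher, Il15 lower, Zfp330 higher, Rnf150 lower and Tbc1d9 higher before Ucp1, and Elmod2, Scoc and D8Ertd738e were lower after it. The order of the levels also differed by genotype. In knockout libraries D8Ertd738e was followed by Usp38, Elmod2, Zfp330, Scoc, Tbc1d9, Il15, Rnf150, Inpp4b and Clgn, and the neighbours Scoc and Tbc1d9, and Tbc1d9 and Il15, overlapped. In wildtype libraries D8Ertd738e was followed by Elmod2, Scoc, Usp38, Zfp330, Rnf150, Il15, Tbc1d9, Inpp4b and Clgn, and Elmod2 and Scoc, and Scoc and Usp38, overlapped.

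The stretch of chromosome 8 that holds these genes was then described with the other genes in it. Between Usp38 and Scoc, RefSeq lists 32 genes, 11 have an entry in the table, and the 8 tested were Ucp1 and 7 of the 10 genes. Between Scoc and D8Ertd738e lie 17 further tested genes. Of these 17, 4 were called higher by limma and none lower, and in 8 the groups did not overlap, against 7.0% higher, 0.745% lower and 29.4% not overlapping among all tested genes. The called genes were Zswim4, a zinc finger protein, Cc2d1a, a signalling scaffold and transcriptional repressor, Dcaf15, a substrate receptor of a ubiquitin ligase, and Cd97, an adhesion receptor of leukocytes. Zswim4 averaged 4.07 ± 0.305 RPKM in the knockout and 2.47 ± 0.50 RPKM in the wildtype, with a log2 change of 0.55 (SE 0.11, limma adjusted p = 0.0233). Cc2d1a averaged 3.87 ± 0.389 RPKM in the knockout and 2.40 ± 0.377 RPKM in the wildtype (log2 change 0.52, limma adjusted p = 0.0236). Dcaf15 and Cd97 had log2 changes of 0.50 and 0.49 (limma adjusted p = 0.0333 and 0.0352). These calls were unstable: of 16 alternatives, Zswim4 lost its call in 8, Cc2d1a in 6, Dcaf15 in 10 and Cd97 in 8. For Zswim4, Cc2d1a and Dcaf15 these include the filter at a mean of 5 RPKM, which removed the genes from the test. Every call was lost without knockout replicate 2, where 3.96% of all genes tested were called instead of 7.75%. Over the alternatives limma adjusted p-values reached up to 0.13.

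Genes of this stretch that did not pass included Dnajb1, a heat shock cochaperone, at 11.4 ± 1.29 RPKM in the knockout and 17.1 ± 6.30 RPKM in the wildtype (log2 change -0.50, limma adjusted p = 0.198). Gipc1, a scaffold protein of receptor traffic, fell just outside the threshold at 13.9 ± 0.811 RPKM in the knockout and 10.6 ± 1.17 RPKM in the wildtype (log2 change 0.36, limma adjusted p just above 0.05). Samd1 had a log2 change of -0.34 and Tecr, a reductase of fatty acid elongation, one of -0.29 (limma adjusted p = 0.206 and 0.158). Over all 17 genes the log2 changes ran from -0.50 to 0.55. The first tested gene wholly beyond D8Ertd738e, Ccdc130, averaged 3.89 ± 0.271 RPKM in the knockout and 3.33 ± 0.136 RPKM in the wildtype.

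Calls were also counted by distance from Ucp1. Within 1 Mb, 26 genes were tested besides Ucp1, of which 9 were called, 5 higher and 4 lower, and 17 had groups that did not overlap; these include genes chosen on this contrast. Without the genes described above, 4 of 19 were called, all higher, and 10 of 19 did not overlap, against 7.75% called and 29.4% not overlapping among all tested genes; the 4 are Zswim4, Cc2d1a, Dcaf15 and Cd97, which all lost their call without knockout replicate 2. Between 1 and 2 Mb 2 of 27 tested genes were called, between 2 and 5 Mb 2 of 26, between 5 and 10 Mb 3 of 20 and between 10 and 20 Mb 4 of 131. Beyond 20 Mb on chromosome 8, 36 of 383 tested genes were called, 31 of them higher and 5 lower.

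The median absolute log2 change was 0.33 within 1 Mb, and 0.29 there without the genes described above. It was 0.15 between 1 and 2 Mb, 0.11 between 2 and 5 Mb, 0.20 between 5 and 10 Mb and 0.12 over all tested genes. Within 10 Mb, 10 of 91 tested genes outside the set of 10 were called, against 7.75% of all tested genes. The number was 4 without knockout replicate 1 and 3 without knockout replicate 2. Calls over all genes tested then also fell, to 4.12% and 3.96%. These windows were set with earlier results known and carry no test.

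**Figure D4:**
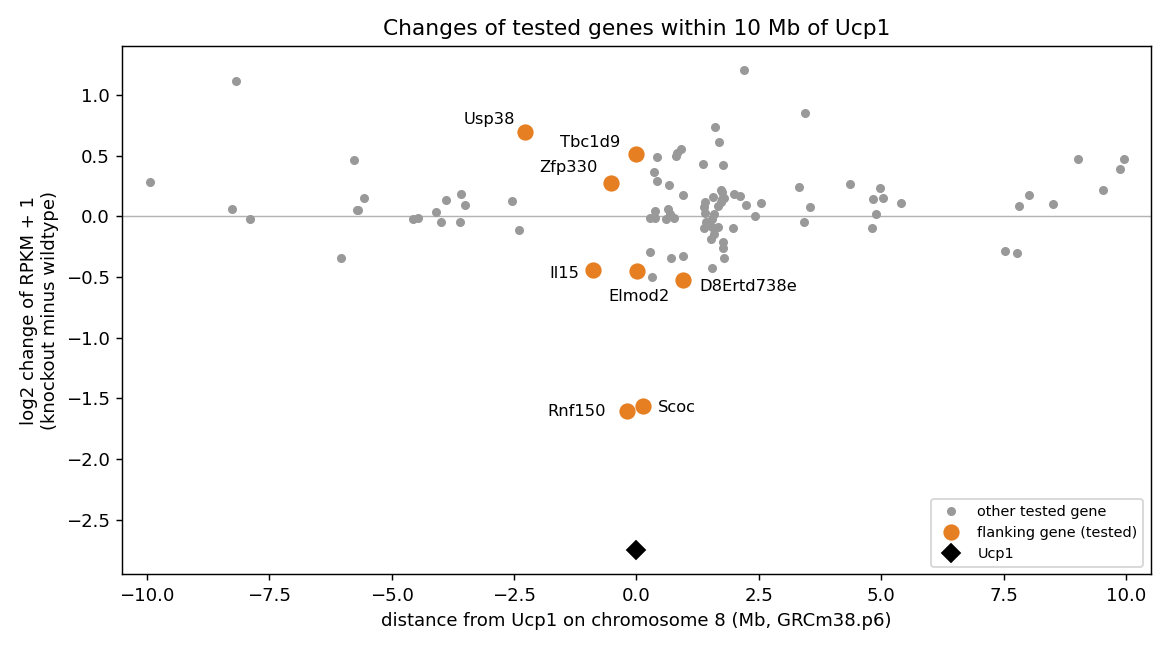
Change in log2(RPKM + 1), knockout minus wildtype (vertical axis), of every tested gene within 10 Mb of Ucp1 against its distance from Ucp1 on chromosome 8 (horizontal axis); the 8 tested flanking genes are orange, Ucp1 is the black diamond and other genes are grey. Rnf150 and Scoc lie at -1.60 and -1.57, Ucp1 at -2.75 and Usp38 at 0.70.

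Relatives and partners of these genes outside the set of 10 were examined as lists, set beside a median log2 change of 0.076 over all tested genes. Of all tested genes 7.75% were called, 7.0% higher and 0.745% lower, so nothing is read from 1 call in a list this short. Of 5 tested relatives of Rnf150 among transmembrane RING ligases, Rnf130 was called higher, at 23.1 ± 1.63 RPKM in the knockout and 18.1 ± 0.926 RPKM in the wildtype (limma adjusted p = 0.0397), and 4 did not pass; the median log2 change was 0.08. The Rnf130 call was lost in 13 of 16 alternatives, in which the adjusted p reached 0.202. Of 10 relatives and GTPase partners of Tbc1d9 and Elmod2, Arl3, a GTPase of primary cilia, was called higher at 17.0 ± 1.33 RPKM in the knockout and 13.0 ± 1.16 RPKM in the wildtype (limma adjusted p = 0.0478), with a list median of 0.15, and that call was lost in 15 of 16 alternatives, up to an adjusted p of 0.167. None of 10 partners of Scoc in Golgi traffic and autophagy passed, with a median of 0.09; the smallest p was that of Ulk1, the kinase that starts autophagy, at 13.8 ± 1.5 RPKM in the knockout and 10.8 ± 0.925 RPKM in the wildtype (limma adjusted p = 0.0926).

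None of 7 lectin chaperones and their helpers passed, with a median log2 change of 0.05; Calr3, a calreticulin relative that also lies on chromosome 8, 10.85 Mb from Ucp1, had the smallest p at 3.75 ± 0.115 RPKM in the knockout and 3.38 ± 0.554 RPKM in the wildtype (limma adjusted p = 0.515). Of 13 phosphoinositide phosphatases, Inpp5b was called higher at 5.30 ± 0.0157 RPKM in the knockout and 3.73 ± 0.333 RPKM in the wildtype (limma adjusted p = 0.0181), a call lost in 6 of 16 alternatives with an adjusted p of up to 0.0729, both scalings among them; the list median was 0.17. Among 7 tested partners of Il15, the receptor chain Il2rg was called higher at 3.30 ± 0.241 RPKM in the knockout and 1.89 ± 0.204 RPKM in the wildtype, with a log2 change of 0.57 (limma adjusted p = 0.00663). That call held in 15 of 16 alternatives, with adjusted p-values of 0.00532 to 0.0386, and the exception was the filter at a mean of 5 RPKM, which removed the gene. Summed macrophage markers, cells that also carry Il2rg, were 76.7 to 105 RPKM in knockout libraries, against 46.9 to 75.2 RPKM in the wildtype libraries, with 1 of 10 called higher, none lower and none at 0; their part was not tested. Of 4 relatives and partners of Usp38, none passed, and Usp46 had the smallest p at 7.20 ± 0.380 RPKM in the knockout and 8.16 ± 0.436 RPKM in the wildtype (limma adjusted p = 0.248).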

How the data were processed

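Libraries were made from total RNA of brown fat with a TruSeq RNA kit, per the labels' protocols. CASAVA and bcl2fastq are listed, with no version, in the submitters' processing notes. No aligner, build or annotation is given in the sources used here. The authors deposited 168326 transcript rows in 6 libraries with decimal commas and no stated unit. The deposited values are RPKM: multiplied by Ensembl transcript length, 95.9% to 96.2% of low values were whole multiples of 1 step per library, within a tolerance of 0.1 reads, and the reads given here come from this step. Similar depth gives similar precision, and 0 per-sample columns were left out.

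Rows without a gene identifier (23170) were left out. Each gene was represented by its RefSeq row of highest mean, then an Ensembl row, then any other. Values were taken as log2(RPKM + 1), and a gene was tested where its mean reached 1 RPKM in knockout or wildtype, with limma 3.58.1 in R 4.3.3 (intensity trend, genotype only, two-sided, Benjamini-Hochberg over all tested genes, threshold 0.05). The fit was tested on simulated data. The 10 genes, the windows and the gene lists were chosen with earlier results of these data known. Named genes are these 10 with every row, Ucp1, the 8 largest changes among other tested genes between the outermost of the 10, the first tested gene beyond each end, chosen after values were seen, and in each list the called genes or the one with the smallest p. Gene order, names (84.4% of genes matched) and start windows come from RefSeq on GRCm38.p6; the windows' coordinates are of that build. Reads of overlapping, antisense or near-identical genes may be shared, since counting by strand is not stated. No 2 libraries were duplicates. Alternatives changed the scaling, pseudocount, filter, row per gene, replicate block, trend and libraries used. Figures were drawn with matplotlib 3.10.9.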

Additional observations from a re-analysis of the deposited data

How the results depend on the processing

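Over 16 alternatives, the log2 differences of the 10 genes and Ucp1 gave 176 values, of which 0 changed sign, 26 moved by more than the spread between replicates and 150 did not; 44 of the values come from 4 alternatives (both filters, the block and the trend) that cannot move a difference. With a pseudocount of 0.1 RPKM Rnf150 had -2.60 and Scoc -1.96. The 9 genes whose groups did not overlap were 8 when the highest row of any kind was used, and 9 with both scalings and the sum of rows; the other alternatives cannot make separate groups overlap.

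Among all genes, 894 were called, 808 higher and 86 lower; median-of-ratios scaling gave 648, 470 higher and 178 lower, which moved the higher calls to 72.5% of all calls against 90.4%. The count was 452 with the filter at 5 RPKM, and 457 to 850 when 1 library was left out. Within 10 Mb of Ucp1, the 10 called genes outside the set were 6 with no filter, 6 with the filter at 5 RPKM and 3 to 10 when 1 library was left out. Over all genes tested then, the shares called were 3.68%, 6.51% and 3.96% to 7.35%. The causes were not tested. The stricter filter leaves fewer genes to test, and leaving out a library leaves fewer samples, but the part of either was not tested.

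The libraries were not treated as paired by replicate number. Same-numbered libraries had correlations of deviations of 0.089, 0.038 and -0.018, against -0.136 to 0.07 for the other pairs. Such low values do not show pairing and, with so few libraries, cannot exclude it. With the replicate block 778 genes were called (6.74%), and 5 of the 8 tested flanking genes instead of 6. Of those 8, 4 were called without knockout replicate 1 and 4 without knockout replicate 2, against 4.12% and 3.96% of all genes tested then. Depth limits Clgn and Inpp4b.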
